A study of Mus musculus and Bos taurus with 6 samples.

Results

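The microRNA miR-221 and miR-222 were followed through small RNA libraries of lactating mammary gland. Their members were every mouse or bovine row of the deposited counts named miR-221 or miR-222, from either arm of the hairpin. This gave 6 rows of 3289, which were mmu-miR-221-3p, mmu-miR-221-5p, mmu-miR-222-3p and mmu-miR-222-5p among 1750 mouse rows, and bta-miR-221 and bta-miR-222 among 1539 bovine rows. The 2 bovine rows are of the 3p arm. The bovine 5p arms were listed under human names, hsa-miR-221-5p and hsa-miR-222-5p, and these rows are given beside the members without being counted among them.

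Each group held 2 libraries. The mouse libraries came from total RNA of mammary glands of FVB/N mice at day 12 of lactation. The AGO2 libraries came from mammary glands of the same strain and stage, after immunoprecipitation with a monoclonal antibody against Argonaute 2 (AGO2), the protein that holds a miRNA in the silencing complex. The bovine libraries came from total RNA of Holstein cows at mid-lactation on a diet with 46% forage and 54% concentrate, and each was a pool of biopsies from 2 cows. The labels do not say which gland or animal each AGO2 library shares with a mouse library, and no library of an immunoprecipitation with another antibody was analysed here. Bovine RNA was extracted with another kit than mouse RNA, and the authors describe primiparous mice and multiparous cows. Species, kit, diet, parity, way of sampling and pooling therefore cannot be told apart.

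A miRNA hairpin is cut into a short duplex, whose strands are named 5p and 3p after the arm they come from. One strand is usually kept in an Argonaute protein, and its seed, the bases from position 2 to position 8, pairs with target messengers. miR-221 and miR-222 are encoded next to each other and share a seed. They are known to repress the cell cycle inhibitor CDKN1B, the receptor KIT and estrogen receptor alpha, and are abundant in endothelium and in basal-like breast cancer cells.

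The shared seed is shown first, since it is what joins both 3p arms, with the seed in capitals and the DNA alphabet used in the deposited lists.
mmu-miR-221-3p: aGCTACATtgtctgctgggtttc
mmu-miR-222-3p: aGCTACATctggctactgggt
bta-miR-221: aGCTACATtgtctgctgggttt
bta-miR-222: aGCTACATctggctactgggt
The first 8 bases of mmu-miR-221-3p and mmu-miR-222-3p were the same, and 11 of 21 positions matched without gaps. As deposited, the mouse and bovine miR-222-3p sequences were identical. The bovine miR-221 sequence was 1 base shorter than mouse miR-221-3p and otherwise the same, so the seed did not differ between the species.

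The 5p arms are shown because, unlike the 3p arms, they do not share a seed.
mmu-miR-221-5p: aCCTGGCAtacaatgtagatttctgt
hsa-miR-221-5p: aCCTGGCAtacaatgtagattt
mmu-miR-222-5p: tCAGTAGCcagtgtagatcct
hsa-miR-222-5p: cTCAGTAGccagtgtagatcct
The listed mouse miR-221-5p was 4 bases longer than the human-named row counted in bovine. The listed mouse miR-222-5p began at base 2 of the human-named one, which moved its seed by 1 position.

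In the mouse genome both hairpins lay on the minus strand of chromosome X. In RefSeq for GRCm38.p6, Mir221 covered chrX:19146294-19146388 and Mir222 covered chrX:19146893-19146971, with 504 bases between them. No other gene of GENCODE release 21 overlapped either hairpin, so the pair was intergenic in that annotation. The nearest gene was the processed transcript Gm14636 at 10010 bases, and the nearest protein-coding gene was Tex13c3 at 332449 bases. In RefSeq the 3p arm of Mir222 has 23 bases, against 21 for the deposited mmu-miR-222-3p. The hairpins are given from RefSeq with the annotated mature arms in capitals, which puts 2 arms on Mir221 and only the 3p arm on Mir222.
Mir221: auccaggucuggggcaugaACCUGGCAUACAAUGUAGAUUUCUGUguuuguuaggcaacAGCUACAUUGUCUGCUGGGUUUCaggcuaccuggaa
Mir222: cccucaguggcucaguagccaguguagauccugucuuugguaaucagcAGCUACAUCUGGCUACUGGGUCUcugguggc

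The summed counts were 9299807 and 8391916 in the mouse libraries, 3909166 and 5041406 in the AGO2 libraries, and 9402483 and 10613807 in the bovine libraries. Levels are given as RPM, which are counts scaled to these sums, and each read stands for a whole mature miRNA, so no length scaling was used. A count of 0 allows up to 3 counts, which was 0.283 to 0.767 RPM according to the library. Exact Poisson and binomial intervals at 95% cover counting error only. Libraries of one group differed by far more than counting error. As the samples are bulk tissue, fewer cells of a type and less miRNA per cell cannot be told apart.

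miR-221-3p was the most abundant of the 4 arms in each of the 6 libraries. Its level was 5457 and 5190 RPM in mouse, 2249 and 2576 RPM in AGO2, and 1568 and 1433 RPM in bovine. The group means were 5323 ± 189, 2412 ± 231 and 1500 ± 95.3 RPM (SD, n = 2 each). Both AGO2 libraries were below both mouse libraries, as for 39.8% of all miRNA tested further below. Both bovine libraries were too, as for 37.4% of those tested between the species. Here and for the other arms, these shares were counted on the normalised levels of the tests and not on RPM. Its place among all miRNA of a library was 38 and 35 in mouse, 52 and 40 in AGO2, and 71 in both bovine libraries. Between the highest and the lowest library the level differed 3.81-fold.

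miR-222-3p followed the same order at a lower level. It reached 619 and 397 RPM in mouse, 276 and 235 RPM in AGO2, and 153 and 150 RPM in bovine. The means were 508 ± 157, 256 ± 29.1 and 152 ± 2.19 RPM (SD, n = 2 each). As for miR-221-3p, the AGO2 and the bovine libraries were below both mouse libraries, as for 39.8% and 37.4% of all tested miRNA. The 2 mouse libraries stood further apart than for miR-221-3p. Its place was 94 and 101 in mouse, 121 and 125 in AGO2, and 149 and 144 in bovine.

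The 5p arms were rare. miR-221-5p was at 42.4 and 36.5 RPM in mouse, from 394 and 306 counts, and at 18.7 and 17.5 RPM in AGO2, from 73 and 88 counts. Both AGO2 libraries were below both mouse libraries, as for 39.8% of all tested miRNA, but this arm passed the filter of that test only through its mouse counts. The human-named 5p row in bovine was at 33.9 and 34.9 RPM, next to the lower mouse value and not to the AGO2 values. miR-222-5p had 8 and 9 counts in mouse, or 0.860 and 1.07 RPM. In AGO2 it had 0 and 4 counts, the second being 0.793 RPM, and the human-named row had 0 counts in both bovine libraries. In AGO2 library 1, 0 counts allow 0.767 RPM, so both AGO2 libraries were below both mouse values. miR-222-5p was not among the tested miRNA, so the 39.8% does not apply to it. The exact Poisson intervals overlapped, as they reached 0.944 and 2.03 RPM in AGO2 and began at 0.371 and 0.490 RPM in mouse. Between mouse and AGO2 no difference in miR-222-5p beyond counting error was therefore detectable at this depth. In bovine 0 counts allow 0.319 and 0.283 RPM, below both mouse values. The row counted there starts 1 base earlier than the mouse one, and neither a test nor a share over all rows was made.

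**Figure D1:**
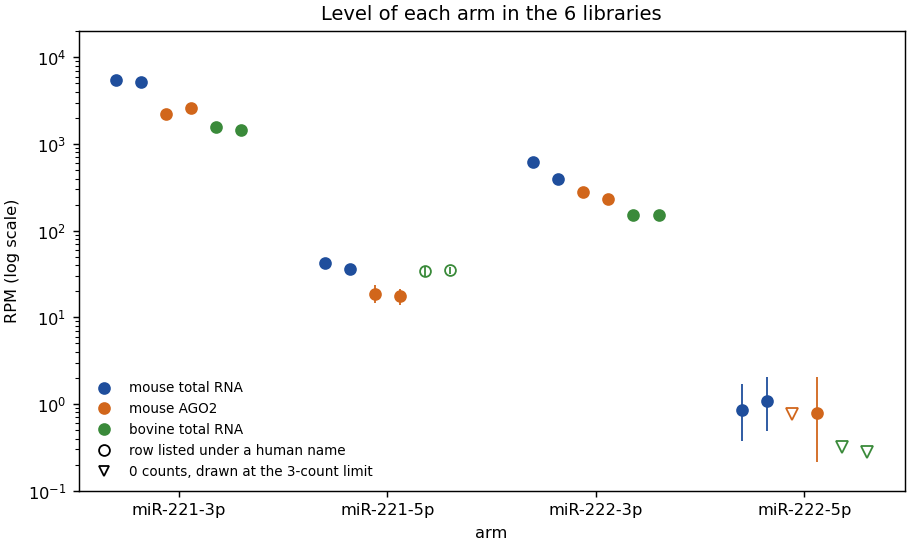
Level of each arm in RPM, on a log axis, with 1 point per library in the order mouse 1 and 2, AGO2 1 and 2, bovine 1 and 2, and exact Poisson 95% intervals. Open circles are rows listed under a human name, and open triangles are counts of 0 drawn at the limit of 3 counts. For miR-221-3p and miR-222-3p both mouse points lie highest and both bovine points lowest.

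The seed they share was summed over miR-221-3p and miR-222-3p, since a target site meets both. The sum was 6076 and 5587 RPM in mouse, 2525 and 2811 RPM in AGO2, and 1721 and 1583 RPM in bovine. No other row of either species carried the same bases from position 2 to position 8. In the mouse lists, the predicted miRNA mmu-4_30034_mt and mmu-1_1600_mt shared the bases from position 2 to position 7. They had at most 12 and 66 counts in a library, with prediction scores of 5.4 and 0.3, and with them the AGO2 mean was 2678 RPM in place of 2668 RPM. The seed of miR-221-5p was also carried by the predicted mmu-17_19502_mt, which had 18 counts in AGO2 library 1 and 0 in the other mouse and AGO2 libraries. miR-199a-3p and miR-199b-3p shared the bases from position 2 to position 7 with miR-222-5p, but not position 8.

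All rows named miR-221 or miR-222 together took 0.612% and 0.562% of the counts in mouse, 0.254% and 0.283% in AGO2, and 0.176% and 0.162% in bovine.

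Loading was addressed by setting the AGO2-miRNome against the whole mouse miRNome. The mean RPM in AGO2 was 45.3% of the mouse mean for miR-221-3p, 45.8% for miR-221-5p and 50.3% for miR-222-3p. A value of this kind compares shares of counts in 2 libraries and is not a share of molecules bound. The test was made on the 299 miRNA that passed a filter on low counts, which miR-222-5p did not pass.

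After normalisation, miR-221-3p was at 5035 and 5087 CPM in mouse and at 2282 and 2835 CPM in AGO2. Its log2 fold change was -0.98 ± 0.50 (SE), with an adjusted p of 0.137 (edgeR's quasi-likelihood test, Benjamini-Hochberg). The log2 fold change was -0.97 ± 1.05 for miR-221-5p (adjusted p 0.473, edgeR) and -0.83 ± 0.63 for miR-222-3p (adjusted p 0.305, edgeR). None of the 3 tested arms passed the threshold, against 12.4% of all tested miRNA that were called lower. For each of the 3 arms both AGO2 libraries were below both mouse libraries, which was also so for 39.8% of all tested miRNA. The median log2 fold change of all tested miRNA was -0.12, and the quartiles were -1.43 and 1.34, so the 3 arms lay below the median and within the central span. Over the 8 alternative settings the log2 fold change of miR-221-3p went from -1.14 to -0.51, with adjusted p from 0.0831 to 0.636. The spread that edgeR used for an arm was drawn partly from all 299 tested miRNA and not from its own libraries alone. The missing call does not show that the levels were equal.

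The 2 arms of miR-221 had nearly the same fitted value in AGO2 against mouse, although neither passed the threshold. The log2 fold change of the 5p arm differed from that of the 3p arm by 0.01, which was the smallest absolute difference among 65 hairpins with both arms tested. Over these hairpins the median absolute difference was 1.73. An arm was tested if it passed the filter on low counts in any library, so a rare arm could enter through mouse or AGO2 alone. Such entry favours large differences between arms, and the 5p arm of miR-221 itself passed only through its mouse counts. The median of 1.73 is therefore not a neutral background. The place of miR-221 among these hairpins cannot show that its arms were unusually alike. The standard error of the 5p arm was 1.05, so differences well above 0.01 were compatible with the counts.

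The arm shares do not depend on the scaling of a library. The 5p share of the miR-221 counts was 0.770% (exact binomial 95% interval 0.696 to 0.850) and 0.698% (0.622 to 0.780) in mouse. In AGO2 it was 0.823% (0.646 to 1.03) and 0.673% (0.540 to 0.829). The 2 groups overlapped, and the means differed by 0.0142 percentage points (two-sided exact permutation p = 1). With 2 libraries against 2, the smallest p that this test can give is 0.333. Among 149 mouse hairpins with at least 1000 counts the median share of the less abundant arm was 0.609%, so that of miR-221 was close to the middle, at place 77 from the lowest. In both AGO2 libraries the share was below both mouse libraries for 42 of these hairpins and above them for 49.

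In bovine, the 5p share of miR-221 was 2.12% and 2.37%, with the 5p counts taken from the human-named row. The mean was 1.51 percentage points, or 3.06-fold, above mouse, and the bovine libraries were above both mouse and both AGO2 libraries (two-sided exact permutation p = 0.333 against mouse, the smallest this design allows). How many hairpins differed this way between the species was not computed, so the difference is not shown to be particular to miR-221. Put in mean levels, bovine against mouse was 1500 against 5323 RPM for the 3p arm and 34.4 against 39.4 RPM for the 5p arm. The 5p sequences counted differed in length between the species, and the part of this in the share was not tested. The 5p share of miR-222 was 0.139% and 0.269% in mouse, and 0 and 0.336% in AGO2. It was 0 in both bovine libraries, where 3 counts would be 0.208% and 0.188%.

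The balance of both 3p arms varied as much within a group as between groups. miR-222-3p made up 10.2% and 7.11% of the counts of the pair in mouse, 10.9% and 8.36% in AGO2, and 8.92% and 9.50% in bovine. The AGO2 mean was 1.00 percentage points above mouse (two-sided exact permutation p = 0.667) and the bovine mean 0.557 above mouse (two-sided exact permutation p = 1). Expressed as a ratio, miR-221-3p had 8.14 to 13.1 times the counts of miR-222-3p over the 6 libraries.

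**Figure D2:**
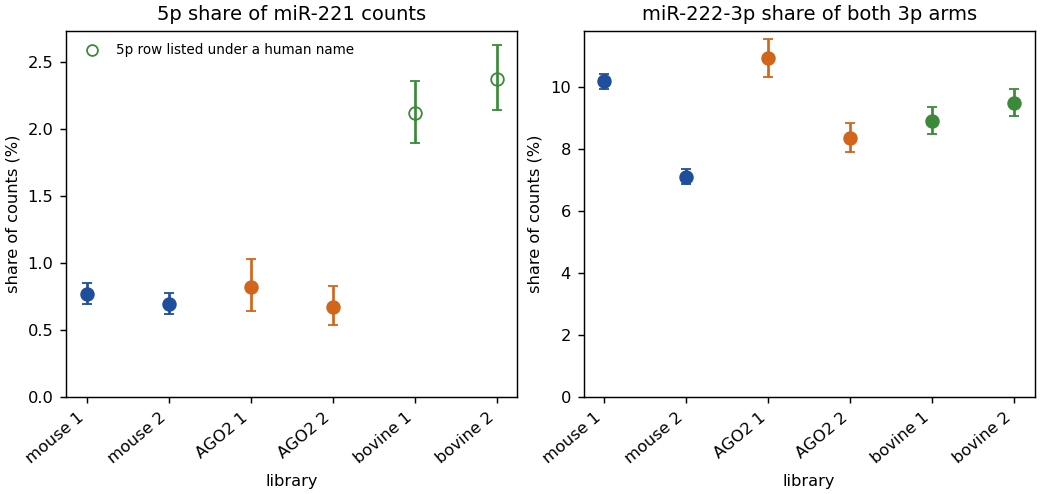
Share of counts in % for each of the 6 libraries, with exact binomial 95% intervals. On the left, the 5p share of miR-221 is between 0.673% and 0.823% in the 4 mouse and AGO2 libraries and above 2% in both bovine libraries, where the 5p row has a human name. On the right, the share of miR-222-3p in both 3p arms runs from 7.11% to 10.9%, and the groups overlap.

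Conservation between the species was addressed by matching miRNA by name and arm, which gave 229 pairs. The 139 with at least 100 RPM in a library were tested. Both 3p arms were lower in bovine mammary gland than in mouse. miR-221-3p was at 6496 and 6626 normalised CPM in mouse and at 1697 and 1648 CPM in bovine, which was 3.92-fold lower. Its log2 fold change was -1.97 ± 0.28 (SE), with an adjusted p of 0.00245 (edgeR's quasi-likelihood test, Benjamini-Hochberg). miR-222-3p was at 737 and 507 CPM in mouse and at 166 and 173 CPM in bovine, or 3.67-fold lower, with a log2 fold change of -1.88 ± 0.38 (adjusted p 0.00895, edgeR).

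Both members were called lower, as were 25.9% of all miRNA tested, and for both the bovine libraries were below the mouse libraries, as for 37.4% of all tested. They took places 22 and 24 from the lowest log2 fold change of 139, where the lower quartile was -1.28 and the median 0.21. The normalisation moved the median, to 0.50 with library totals alone and to 0.03 with DESeq2 size factors, and the log2 fold change of miR-221-3p moved with it to -1.68 and -2.16. Without mouse replicate 1 or 2, the log2 fold change was -2.07 and -2.04 for miR-221-3p, and -1.67 and -2.20 for miR-222-3p. A fit left with 1 bovine library takes its spread between libraries from the mouse pair alone. Without bovine replicate 1, miR-221-3p was at -1.995 (adjusted p 0.0644, edgeR) and miR-222-3p at -1.85 (adjusted p 0.111, edgeR), and without bovine replicate 2 they were at -2.13 (adjusted p 0.0488, edgeR) and -2.09 (adjusted p 0.0796, edgeR). The size of the difference was kept while the call was lost in 3 of these 4 fits. p-values here measure the spread between libraries, and for bovine between pools.

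**Figure D3:**
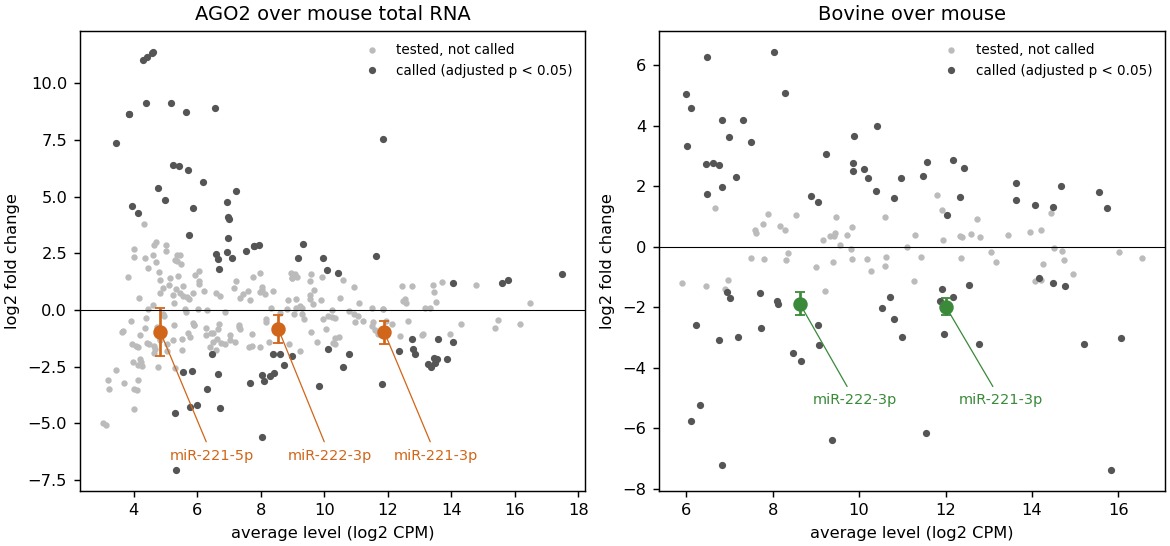
Log2 fold change against average level in log2 CPM for AGO2 over mouse (left, 299 miRNA) and bovine over mouse (right, 139 matched miRNA). Dark points passed an adjusted p of 0.05 and error bars are standard errors. On the left the 3 tested arms lie between -0.98 and -0.83 and were not called, and on the right both 3p arms lie near -2.

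The miRNA most like each member across the 6 libraries was the other member. Likeness was the root mean square distance of log2(RPM + 1), each centred on its own mean, among 146 matched miRNA with at least 100 RPM in a library. miR-221-3p and miR-222-3p were 0.221 apart, whereas the median distance from miR-221-3p to all the others was 1.39. Next to miR-221-3p came miR-152-3p (0.273), miR-182-5p (0.292), miR-708-5p (0.403) and miR-503-5p (0.406). Next to miR-222-3p came miR-182-5p (0.265), miR-152-3p (0.339), miR-107-3p (0.410) and miR-503-5p (0.459). With 6 points from 3 groups, the distance mostly compares the groups and is a description.

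miR-152-3p, which is known to target the DNA methyltransferase DNMT1, was at 4464 and 4682 RPM in mouse, 2067 and 2111 RPM in AGO2, and 1981 and 1848 RPM in bovine. It thus had a level near that of miR-221-3p in each group. miR-182-5p was at 2302 and 1560 RPM in mouse, 725 and 561 RPM in AGO2, and 530 and 519 RPM in bovine. In both, as in both 3p arms, mouse was highest and bovine lowest, which largely follows from their choice by likeness over the same libraries.

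**Figure D4:**
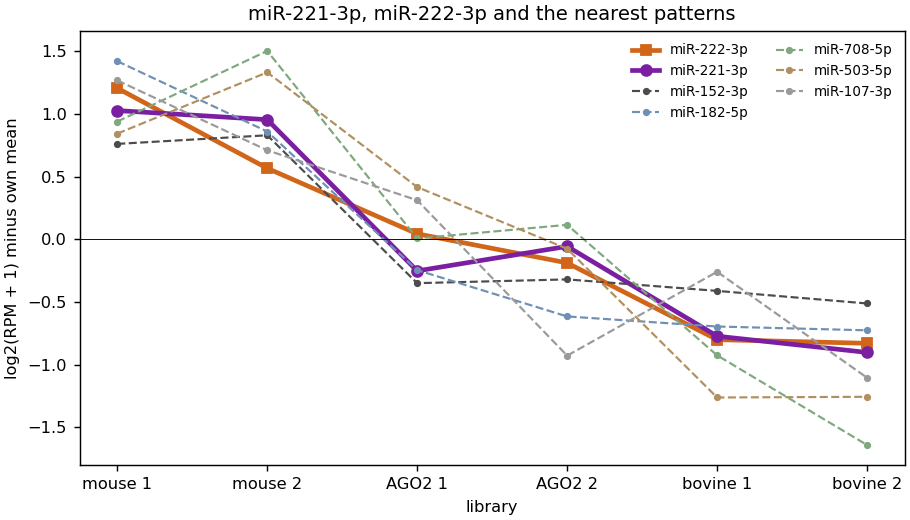
Log2(RPM + 1) minus the miRNA's own mean over the 6 libraries, for miR-221-3p and miR-222-3p (thick lines) and the 5 other miRNA named as nearest to either (dashed). All 7 are highest in the mouse libraries and on average lowest in the bovine libraries, and the thick lines run 0.221 apart by root mean square. The 5 were chosen by likeness over these libraries, so the shared order largely follows from the choice.

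Other miRNA known to target estrogen receptor alpha were too few among the tested ones to compare as a list. Of miR-18a-5p, miR-18b-5p, miR-22-3p, miR-193b-3p, miR-206-3p and miR-302c-3p, 2 of 6 were tested in AGO2 and none passed the threshold, with a median log2 fold change of -1.12, beside -0.12 over all tested miRNA, of which 12.4% were called lower and 15.4% higher. Of these, miR-22-3p was at -1.07 ± 0.40 (adjusted p 0.0539, edgeR) and miR-18a-5p at -1.17 ± 0.64 (adjusted p 0.169, edgeR). Between the species 3 of 6 were tested, and 1 was called higher and 1 lower in bovine, where 29.5% of all tested miRNA were called higher and 25.9% lower. miR-18a-5p was at -1.65 ± 0.36 (adjusted p 0.0113, edgeR), miR-18b-5p at 4.18 ± 0.53 (adjusted p 0.00182, edgeR) and miR-22-3p at -0.14 ± 0.27 (adjusted p 0.657, edgeR). By level, miR-22-3p led the list with 26241 and 19115 RPM in mouse, above miR-221-3p, and miR-206-3p did not exceed 1.81 RPM in any library.

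Markers of cell types were set beside these levels, and their part in the results was not tested. The 2 endothelial miRNA, both arms of miR-126, summed to 24193 to 34264 RPM in mouse, 28818 to 29280 RPM in AGO2 and 55972 to 62356 RPM in bovine. In AGO2, miR-126-3p was called lower (-1.30 ± 0.43, adjusted p 0.0274, edgeR) and miR-126-5p higher (1.18 ± 0.42, adjusted p 0.0422, edgeR), and neither was matched by name between the species. The 6 epithelial miRNA (the miR-200 family and miR-205-5p) summed to 159803 to 188746 RPM in mouse, 338037 to 368284 RPM in AGO2 and 77607 to 79458 RPM in bovine. Members of this list went opposite ways. In AGO2 miR-200a-3p and miR-141-3p were called higher and miR-200b-3p and miR-200c-3p lower. In bovine miR-205-5p was called higher and miR-200a-3p, miR-200b-3p and miR-429-3p lower. All markers of both lists were detected in each library. The 3 erythroid miRNA summed to 6504 to 13343 RPM in mouse, 15527 to 32468 RPM in AGO2 and 1098 to 1709 RPM in bovine. The 4 smooth muscle and stromal miRNA gave 54216 to 70847, 34223 to 36639 and 63436 to 77751 RPM, and the 5 leukocyte miRNA 1263 to 2123, 2351 to 2971 and 2553 to 3285 RPM in the same order. Members of the leukocyte list also went opposite ways in bovine. There miR-150-5p (2.58) and miR-155-5p (2.31) were called higher and miR-223-3p (-1.53) lower, while miR-142-3p (-1.44) and miR-142-5p (0.35) were not called. In AGO2 no leukocyte miRNA was called. The 3 skeletal muscle miRNA stayed at or under 213 RPM in mouse and AGO2 and reached 727 and 782 RPM in bovine. Of these, in AGO2 miR-1a-3p was called lower (-2.82), miR-133a-3p was not called (2.69) and miR-206-3p was not tested. Between the species none of them was tested.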

How the data were processed

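The authors trimmed poly-A tails, selected reads 17 to 28 nt long and quantified these with miRDeep2 on precursors of miRBase 20 and predicted ones. Per the labels, genomes were GRCm38 and UMD3.1. The deposited counts are raw, with 1 value for each mature miRNA. The deposited prediction score was made by the authors with miRDeep2.

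RPM were computed over the summed counts. Differences were tested in R 4.3.3 with edgeR 4.0.16 (TMM, quasi-likelihood F test, Benjamini-Hochberg, adjusted p under 0.05). The standard error is the log2 fold change over the square root of F. The study's methods used DESeq2, here an alternative (1.42.0). AGO2 against mouse used counts above 175 in at least 1 library, and bovine against mouse 100 RPM. The procedure was tested on simulated data. Replicates were numbered in accession order. Hairpins came from RefSeq, where 2 of 2 matched, and no bovine genome was used. The text names every row of miR-221 and miR-222, rows sharing their seed, the 5 nearest patterns of each 3p arm, and fixed lists. Members and lists were chosen with earlier results of these data known.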

Additional observations from a re-analysis of the deposited data

How the results depend on the processing

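The AGO2 libraries were the shallowest, and each group had 2 libraries. Bovine against mouse, the lost calls were miR-221-3p without bovine replicate 1 (-1.995, adjusted p 0.0644, edgeR) and miR-222-3p without bovine replicate 1 (-1.85) or 2 (-2.09). All log2 fold changes of the members kept their sign under every alternative run. In bovine they lay from -2.46 to -1.68 for miR-221-3p and from -2.35 to -1.60 for miR-222-3p. In AGO2 they lay from -1.14 to -0.64 for miR-221-5p and from -1.14 to -0.53 for miR-222-3p, never called. Leaving out 1 library at a time gave -2.13 to -1.995 for miR-221-3p and -2.20 to -1.67 for miR-222-3p in bovine, where a group left with 1 library was assumed to vary like the other. Without a filter on low counts, 29 miRNA were called higher in AGO2, against 46, and 69 lower in bovine, against 36. Leaving out 1 library at a time gave 31 to 62 higher and 21 to 33 lower calls in AGO2, with 21 without mouse replicate 1 and 23 without AGO2 replicate 1. It gave 27 to 57 higher and 19 to 51 lower calls in bovine, with 27 and 22 without bovine replicate 2 and 19 lower without bovine replicate 1. The sign of small differences in shares turned. AGO2 minus mouse, the 5p share of miR-221 ran from -0.0610 to 0.0894 percentage points, at -0.0221 without mouse replicate 2 and -0.0610 without AGO2 replicate 1. The share of miR-222-3p ran from -0.538 to 2.54, at -0.538 without mouse replicate 2 and -0.288 without AGO2 replicate 1. Bovine minus mouse it ran from -0.982 to 2.10, at -0.982 without mouse replicate 2. The cause was not tested. The 5p share of miR-221 in bovine stayed 1.38 to 1.64 above mouse, an alternative chosen after seeing the data. No paired fit was made, since the deposited labels tie no AGO2 library to a mouse library by number or animal. The authors describe left and right glands taken from 2 mice, so AGO2 and mouse libraries may share animals. The unpaired test does not use such a pairing. The other alternatives left tested values on the same side of the threshold and counts of calls within 1.5 times. Levels scaled with TMM and seed sums stayed within 1 SD. Leaving out 1 of 2 libraries always keeps a level within 1 SD of their mean, so it could not decide whether levels were stable.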
